A study of Mus musculus with 15 samples.

Results

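Quadriceps muscle from adult offspring of high-fat-fed sires and exercised dams was compared with quadriceps of control offspring by RNA sequencing. The comparison takes 3 libraries against 3, of 15 in the series, and covers the 13499 genes of 50686 whose mean normalized count over all 15 libraries was at least 10. The series title asks whether running in pregnancy protects adult offspring from the metabolic effect of an obese parent. All animals were C57BL/6 mice. In the paternal exercised group, males ate a 60% high-fat diet for 6 weeks from 8 weeks of age and were mated with lean females of 14 weeks. Each female was then housed singly with a free running wheel while pregnant. In the control group (NC-Sed) neither parent had the high-fat diet and the wheel of the pregnant female was locked. A parallel study of dams used the same controls. For contrast, the paternal sedentary group had high-fat sires and lean dams with locked wheels. The maternal exercised group had dams on the high-fat diet before mating with a lean male, followed by a free wheel in pregnancy. The remaining group, maternal sedentary (high-fat dams without exercise), entered the filter on mean counts and the estimate of spread in the tests. All offspring, controls included, were kept on chow without exercise from the day after birth until 10 months of age. The labels name 4 high-fat and 4 chow sires and do not tie an offspring to a sire or litter. P-values therefore measure only the spread between these samples, some of which may share parents.

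The mass of skeletal muscle reflects a balance between protein synthesis and protein breakdown. FoxO transcription factors, which insulin signalling keeps out of the nucleus, turn on the ubiquitin ligases Trim63 (MuRF1) and Fbxo32 (atrogin-1) and genes of autophagy in fasting, glucocorticoid excess and disuse. A quadriceps sample also holds blood vessels with smooth muscle and pericytes, nerve with Schwann cells, satellite cells and fibroblasts, all of which contribute RNA.

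The 6 libraries held 19028361 to 25702946 counted reads. The 10 genes that define skeletal muscle, such as Acta1, Ckm and Ttn, took 90400 to 104800 CPM (reads per library scaled to a common total) over both groups, whose ranges overlapped. Xist, the transcript of the inactive X chromosome, had 951 to 2250 reads per library, and 4 genes of the Y chromosome had 0 or 1 read in total, the pattern of female tissue. Control replicate 2 stood apart. Its 28 hepatocyte genes reached 190 CPM against 17.7 to 31.0 in the other 5 libraries, it had 17699 detected genes against 19062 to 20296, and transcripts of the mitochondrial genome took 1.30% of its reads against 2.51 to 4.05%. The sample titles carry a code whose meaning is not given. Control replicates 1 and 2 and paternal exercised replicate 1 share the code F1, and control replicate 3 and paternal exercised replicate 3 share F6, so differences within each code are given where they bear on a result. Paternal exercised replicate 2 shares its code (F2) with no control.

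No gene passed an adjusted p of 0.05 in the comparison of paternal exercised offspring with controls (limma, 0.00% of 13499 genes, lowest adjusted p = 0.284). There were 1850 genes (13.7%) at an unadjusted p under 0.05, of which 1092 (8.09% of the genes tested) were higher and 758 (5.62%) were lower. All 3 paternal exercised libraries stood above every control for 1579 genes (11.7%) and below every control for 1175 (8.70%), which is the background for the counts below. Over all genes the split was even, with 49.9% higher and 50.1% lower on average and a median log2 difference of -0.00069. The quasi-likelihood test of edgeR on recovered reads called 0 genes (1811 at an unadjusted p under 0.05). DESeq2 called 67 (0.631% of the 10616 genes to which it gave an adjusted p), 40 higher and 27 lower, and for all 67 the groups did not overlap. Scaling each library by its total count turned the balance of calls. Of the genes at an unadjusted p under 0.05 it left 48.4% on the higher side against 59.0%, and of those without overlap 44.1% (944 higher, 1196 lower) against 57.3%. Without control replicate 2 the count at an unadjusted p under 0.05 dropped from 1850 to 697 genes (5.16%), and without control replicate 3 it was 2853. If no gene differed, a share of 0.05 of the genes would on average fall under that threshold, which is close to the share without control replicate 2.

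**Figure D1:**
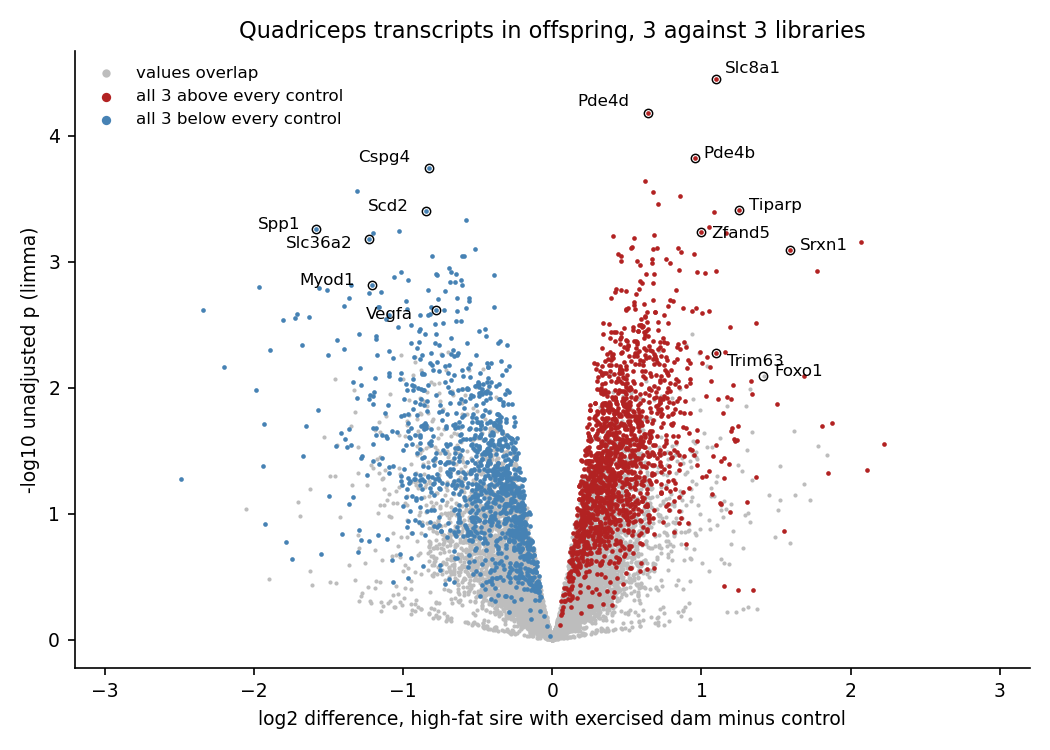
Each point is 1 of 13499 genes, with the log2 difference of paternal exercised offspring from control on the x axis and -log10 of the unadjusted limma p on the y axis. Red points (1579) lie above every control and blue points (1175) below every control; circled genes are described in the text, and none passed after adjustment.

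The genes with the smallest unadjusted p among those that did not overlap included enzymes that end cyclic AMP signals and a calcium exchanger. Slc8a1 (chromosome 17, 81373105 to 81738377, GRCm38), the sodium-calcium exchanger of the cell membrane, had normalized counts of 437, 378 and 318 in the paternal exercised libraries and 137, 157 and 246 in the controls. All 3 stood above every control, with a log2 difference of 1.10 ± 0.19 (SE, limma adjusted p = 0.284). Pde4d (chromosome 13, 108449948 to 109953461), a cyclic AMP phosphodiesterase, had 7494, 7625 and 6199 against 4996, 4458 and 4171. Its close relative Pde4b (chromosome 4, 102087543 to 102607259) had 3666, 2835 and 3177 against 1518, 1369 and 2166. For both phosphodiesterases the lowest paternal exercised library lay well above the highest control, with log2 differences of 0.64 ± 0.12 and 0.96 ± 0.19. In DESeq2 these 3 genes passed, with adjusted p of 0.00133, 0.00133 and 0.0120. Without control replicate 3, Slc8a1 also passed in limma (adjusted p = 0.0114), as the 1 gene to do so.

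Several of the other higher genes regulate transcripts, proteins or hormone signals. Tiparp, a target of the aryl hydrocarbon receptor that ADP-ribosylates proteins, had 560, 538 and 436 against 277, 126 and 275 (log2 1.25 ± 0.28). Zfand5, a zinc finger protein that stimulates the proteasome and takes part in muscle atrophy, had 8277, 10078 and 9316 against 5216, 3072 and 6110 (log2 1.00 ± 0.23). Thrb, the thyroid hormone receptor beta, had 720, 948 and 775 against 447, 478 and 595 (log2 0.68 ± 0.16). In all 3 genes the groups were apart, and the gap was narrowest for Thrb. The remaining higher genes named by the rule were Hsd17b7, of cholesterol synthesis (log2 0.62), Naa25, a subunit of an N-terminal acetyltransferase (0.67), Samd4, an RNA-binding repressor of translation (0.86), Mast4, a kinase (0.71), Slc10a3 (1.08), Zrsr1, a splicing factor (1.05), Taf7, a subunit of the general transcription factor TFIID (1.16), Optn, an autophagy receptor (0.41), and Ythdf2, a reader of methylated adenosine in RNA (0.55). Optn had the smallest difference of the 15, with normalized counts of 1739, 1794 and 1915 against 1311, 1338 and 1462.

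**Figure D2:**
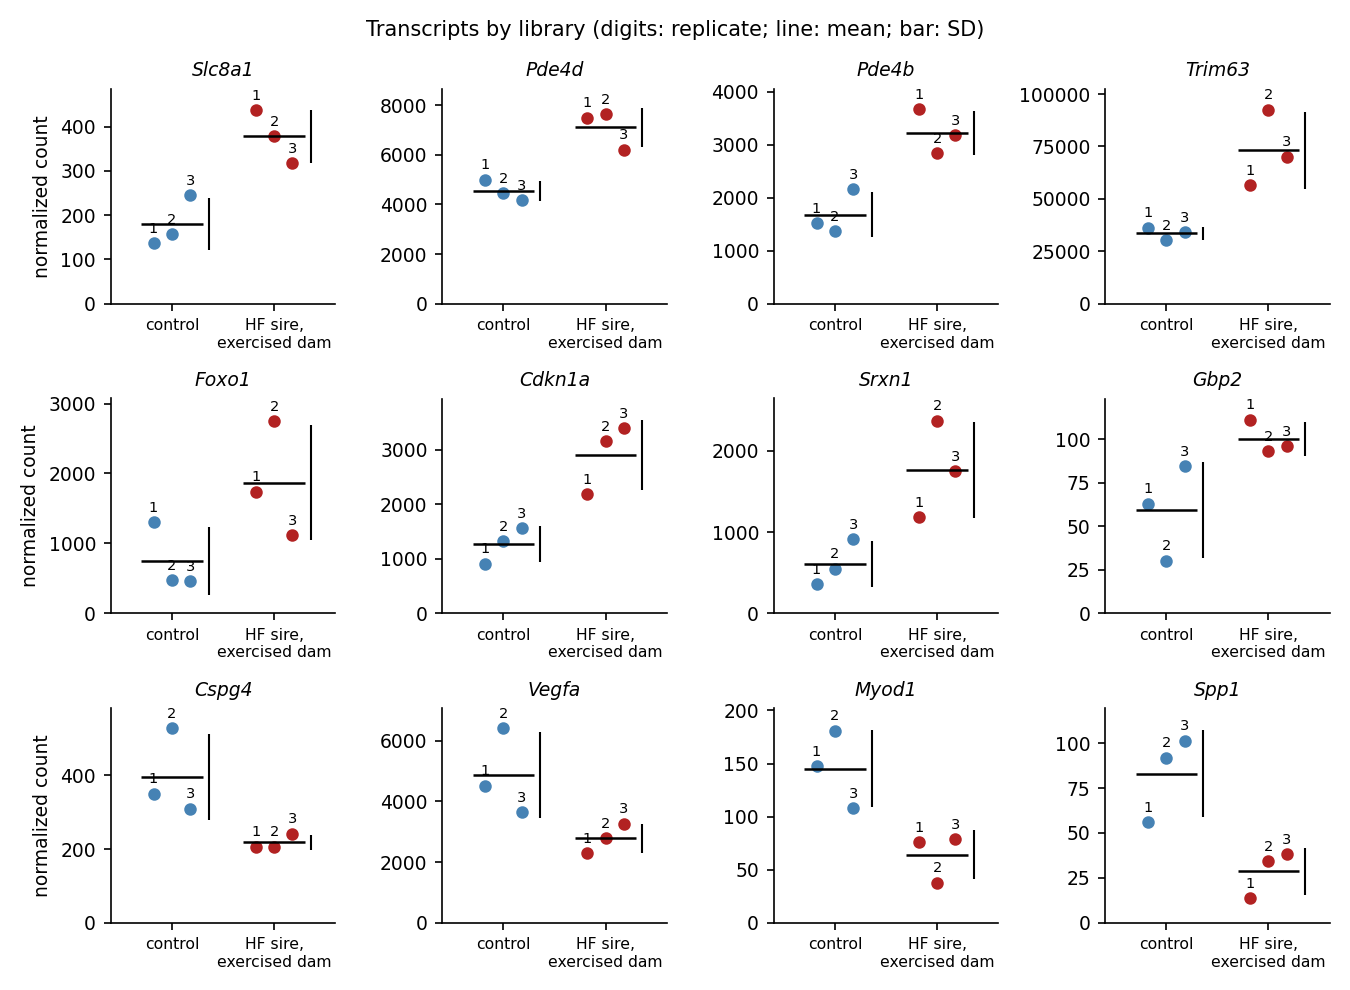
Normalized counts of 12 genes in the 3 control libraries (blue) and the 3 paternal exercised libraries (red), each point 1 library with its replicate number, the line the group mean and the bar the SD. The groups are apart in 11 panels; for Foxo1, control replicate 1 (1303) lies above paternal exercised replicate 3 (1118).

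On the lower side the rule named genes of pericytes, lipid synthesis, bone-type matrix and growth factor signalling. Cspg4 (chromosome 9, 56865033 to 56899870), the NG2 proteoglycan of pericytes, had 207, 206 and 241 normalized counts in paternal exercised offspring and 351, 528 and 310 in controls. Its log2 difference was -0.82 ± 0.17, and control replicate 2 was the highest value. Scd2, a desaturase that makes monounsaturated fatty acids, had 267, 227 and 331 against 405, 614 and 470 (log2 -0.85 ± 0.19). Spp1 (osteopontin), a secreted matrix protein, had 13.6, 34.2 and 38.2 against 55.9, 91.9 and 102 (log2 -1.58 ± 0.36). These 3 genes were all apart from the controls, and paternal exercised replicate 1 held the lowest Spp1 value of the 6 libraries. Spry4, which restrains receptor tyrosine kinase signals, had a log2 difference of -1.03 and the growth factor receptor Fgfr4 one of -0.77. The others were Pfas, of purine synthesis (-0.58), Slc36a2, an amino acid transporter (-1.23), Slc12a9 (-0.52), Nav2 (-0.59), Arhgef10 (-0.60), Crip1 (-0.69), Sema6a, a guidance ligand (-0.68), Zfp385a (-1.01), Ggnbp1 (-0.64) and Afap1l2 (-0.78). Of the 30 genes named on both sides, 28 passed in DESeq2, all but Afap1l2 and Fgfr4 (adjusted p of 0.0631 and 0.0675). The 30 were picked for small p in these same libraries, so DESeq2 is no independent check of them. In edgeR none of the 30 passed.

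Genes of muscle protein breakdown were higher in paternal exercised offspring. Of 20 FoxO and atrophy genes, 18 had a higher mean and 2 a lower one, 8 stood above every control and 0 below, and the median log2 difference was 0.58. That is 40.0% of the list above every control, beside 11.7% of all genes. Trim63 (chromosome 4, 134315120 to 134329629), the ubiquitin ligase that marks contractile proteins for degradation, had 56604, 92598 and 70144 normalized counts against 36221, 30242 and 34199. The controls lay close together and the paternal exercised libraries spread more widely above them (log2 1.10 ± 0.34, limma adjusted p = 0.284). Fbxo32, the other atrophy ligase, had 41583, 52659 and 52093 against 36825, 22560 and 38810 (log2 0.61 ± 0.25). Here the gap between the lowest paternal exercised and the highest control library was small. Foxo1, named after its values were seen, had the largest mean difference of the FoxO factors (log2 1.42 ± 0.46), but its values overlapped, with 1739, 2747 and 1118 against 1303, 470 and 458. Foxo3 stood above every control (log2 0.60 ± 0.22). Cdkn1a (p21), an inhibitor of cell division that FoxO factors induce, had 2186, 3159 and 3396 against 911, 1326 and 1565 (log2 1.21 ± 0.41). Gadd45a, a stress gene of denervated muscle, differed by 0.77 ± 0.26. The list median was 0.42 without control replicate 2, 0.25 within F1, 0.39 within F6 and 0.34 after adjustment for title code.

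The promoter of Trim63 is shown because it holds the FoxO motif GTAAACA, searched on both strands in the 250 bases before each RefSeq start site (GRCm38.p6). Capitals mark the match, which is on the reverse strand at position -194 from the start. The motif occurs in 3.17% of 32851 mouse promoters, counted per start site. It occurs in 2 of the 17 FoxO and atrophy genes with a RefSeq promoter (Trim63 and Eda2r), counting a match at any start site. The shares are thus in unlike units.
Trim63, chr4:134314870-134315119, plus strand: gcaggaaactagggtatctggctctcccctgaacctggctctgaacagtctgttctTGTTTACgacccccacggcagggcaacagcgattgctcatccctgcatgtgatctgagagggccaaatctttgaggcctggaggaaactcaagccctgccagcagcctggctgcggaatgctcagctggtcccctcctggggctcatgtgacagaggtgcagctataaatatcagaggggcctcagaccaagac

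Glucocorticoid and fasting response genes were also higher on average. Of 17 tested, 13 had a higher mean and 4 a lower one, 6 stood above every control (35.3%) and 1 below, and the median log2 difference was 0.45. It was 0.41 without control replicate 2, 0.25 without paternal exercised replicate 2 and 0.30 after adjustment for title code. Lpin1, a phosphatidate phosphatase that is induced by fasting, had 19569, 23493 and 18463 against 13663, 12869 and 13688 (log2 0.61 ± 0.17). Its controls differed little among themselves and lay below all 3 paternal exercised libraries. The transcription factors Cebpb (log2 0.71 ± 0.22) and Klf9 (0.45 ± 0.15) and the kinase Pdk4 (0.53 ± 0.22), which shuts glucose carbon out of mitochondria, were also above every control. Pdk4 had 78934, 115640 and 102410 against 74843, 52392 and 78716, so its groups were separated by a narrow margin. Dusp1, a phosphatase that switches off stress kinases and is itself a glucocorticoid target, went the other way, with 930, 548 and 543 against 1372, 1495 and 964 (log2 -0.95 ± 0.28). Mstn (myostatin), the secreted inhibitor of muscle growth, had 1008, 1600 and 1368 against 799, 534 and 753 (log2 0.93 ± 0.29), above every control. Its antagonist Fst (follistatin) had 38.6, 43.6 and 36.5 against 53.9, 53.5 and 51.6, below every control (log2 -0.42 ± 0.21, limma adjusted p = 0.385).

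The machinery that carries out protein and organelle turnover showed smaller differences in the same direction. Of 31 proteasome subunit genes, 25 had a higher mean and 6 a lower one, with 9 above every control (29.0%), 0 below and a median log2 difference of 0.19. Psmd11, a subunit of the regulatory particle, had 2988, 3887 and 3349 against 2264, 1842 and 2726 (log2 0.59 ± 0.15). The ATPase subunit Psmc2 differed by 0.30 ± 0.09 and Psmd12 by 0.33 ± 0.11, and the groups of both were apart. For the proteasome the median was 0.09 without control replicate 2, 0.29 without control replicate 3, 0.30 within F1 and -0.01 within F6. Of 20 autophagy and mitophagy genes, 13 were higher and 7 lower on average, with 5 above every control (25.0%), 0 below and a median of 0.18 (0.11 after adjustment for title code). Ulk1, the kinase that starts autophagy, had 6620, 11246 and 8535 against 5461, 6019 and 5702 (log2 0.59 ± 0.27). The cargo receptors Nbr1 (0.29 ± 0.10) and Bnip3l (0.37 ± 0.15) stood above every control. Gabarapl1, an autophagosome protein named after its values were seen, had a larger difference (1.04 ± 0.33) with overlapping values.

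Genes for protein folding in the endoplasmic reticulum were among the higher ones. Of 22 heat shock and unfolded protein genes, 15 had a higher mean and 7 a lower one, with 6 above every control, 1 below and a median log2 difference of 0.17. Dnajb9, a cochaperone of the reticulum, had 474, 747 and 579 against 319, 288 and 398 (log2 0.83 ± 0.22), apart from the controls. The transcription factor Xbp1 (0.42 ± 0.12) and the chaperone Hsp90b1 (0.49 ± 0.21) were also above every control, and Sdf2l1 was below (-0.63 ± 0.30). The list median came to 0.03 without control replicate 2, with 11 of the 22 genes higher, and to 0.11 without paternal exercised replicate 1.

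Members of the NRF2 programme, which answers oxidants, held some of the larger differences, while the list as a whole lay close to zero. Of 23 genes, 15 had a higher mean and 8 a lower one, with 4 above every control (17.4%), 0 below and a median log2 difference of 0.06 (0.034 without control replicate 2 and 0.13 without control replicate 3). Srxn1 (sulfiredoxin), which restores oxidized peroxiredoxins, had 1186, 2370 and 1749 against 356, 551 and 915 (log2 1.59 ± 0.38). All 3 were above every control, and both groups spread widely. Thioredoxin reductase Txnrd1 had 2579, 3145 and 2773 against 1626, 1782 and 2231 (0.60 ± 0.15), and glutathione reductase Gsr differed by 0.64 ± 0.18. Nfe2l2 itself, which encodes NRF2, had 1314, 1780 and 1784 against 934, 995 and 1233 (0.62 ± 0.18). The enzyme subunits of glutathione synthesis Gclm (0.94 ± 0.27) and Gclc (0.60 ± 0.19), named after their values were seen, overlapped with control replicate 3. Within the 250 bases before the start site, the antioxidant motif TGACNNNGC, searched on both strands and chosen after the data were seen, occurred in 10.2% of mouse promoters and in 5 of the 17 genes of the list with a promoter (Gclm, Nfe2l2, Prdx1, Sod1 and Txnrd1). The 10.2% counts each start site, while a gene was counted with a match at any of its start sites. Srxn1 had no match in this window. The promoters of Gclm and of the 1 of 3 Txnrd1 start sites with a match are shown because both genes were higher. Capitals mark the matches, at positions -134 and -92 from the start.
Gclm, chr3:122245307-122245556, plus strand: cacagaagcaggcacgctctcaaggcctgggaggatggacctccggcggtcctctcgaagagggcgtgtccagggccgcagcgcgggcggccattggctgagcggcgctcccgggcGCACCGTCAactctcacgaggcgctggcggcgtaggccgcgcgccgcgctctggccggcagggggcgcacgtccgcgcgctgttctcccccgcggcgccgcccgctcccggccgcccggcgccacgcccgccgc
Txnrd1, chr10:82858956-82859205, plus strand: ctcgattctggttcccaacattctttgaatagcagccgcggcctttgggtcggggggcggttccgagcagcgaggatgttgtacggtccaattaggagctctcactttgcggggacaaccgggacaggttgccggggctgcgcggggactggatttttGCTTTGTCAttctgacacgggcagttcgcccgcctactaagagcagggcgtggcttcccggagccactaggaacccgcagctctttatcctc

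Components of insulin signalling differed in both directions. Of 27 insulin and AMPK signalling genes, 17 had a higher mean and 10 a lower one, with 6 above every control (22.2%), 3 below (11.1%) and a median log2 difference of 0.10 (0.036 without control replicate 3). The insulin receptor Insr had 2948, 3970 and 2815 against 2237, 2033 and 2413 (0.53 ± 0.17). Its substrate Irs1 had 881, 1055 and 916 against 562, 665 and 504 (0.73 ± 0.26). The kinase Gsk3b, which holds back glycogen synthesis until insulin inhibits it, had 2882, 4326 and 3077 against 1977, 1729 and 2164 (0.79 ± 0.19) and passed in DESeq2 (adjusted p = 0.0348). In all 3 genes the groups were apart. Sesn1, a stress-induced inhibitor of mTORC1, had 1706, 5316 and 2937 against 1442, 915 and 1643, so that paternal exercised replicate 1 lay just above the controls (1.21 ± 0.47). The 3 members below every control were the AMPK subunit Prkag1 and 2 genes whose products restrain the insulin receptor, Grb10 (-0.31 ± 0.13) and Socs3 (-1.14 ± 0.49). Socs3 had 13.6, 40.0 and 31.4 against 69.1, 54.5 and 52.5. The glucose transporter Slc2a4 (GLUT4) overlapped, with 13376, 13611 and 12956 against 15248, 15718 and 12160 (log2 -0.10 ± 0.16).

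Interferon response and antigen presentation genes were mostly higher. Of 36 tested, 28 had a higher mean and 8 a lower one, with 7 above every control (19.4%), 0 below and a median log2 difference of 0.22. GTPases that guard against intracellular microbes were among them. Iigp1 had 201, 95.4 and 127 against 43.7, 39.4 and 80.1 (1.36 ± 0.39, limma adjusted p = 0.284), apart from the controls. Irgm2 had 607, 337 and 414 against 297, 166 and 303 (0.83 ± 0.25), Irgm1 differed by 0.58 ± 0.23, Gbp2 by 0.86 ± 0.32 and Gbp4 by 0.81 ± 0.32. The peptide transporter Tap1 had 128, 125 and 144 against 94.5, 43.4 and 102 (0.81 ± 0.31). In Iigp1, Irgm2, Irgm1, Gbp2 and Tap1 control replicate 2 held the lowest value. Without it the difference was 1.17 for Iigp1, 0.55 for Irgm2, 0.45 for Gbp2 and 0.42 for Tap1. Bst2, a tether of budding virus particles, had 143, 121 and 108 against 81.3, 98.0 and 97.9 (0.42 ± 0.16). The list median was 0.17 without control replicate 2, 0.38 without control replicate 3, 0.54 within F1 and 0.05 within F6. Isg15, a ubiquitin-like interferon product named after its values were seen, overlapped (-0.21 ± 0.43). Paternal sedentary offspring had a list median of 0.27 against the same controls, and the difference between the 2 paternal groups had a median of 0.01. The interferon motif (GAAA, 2 bases of any kind, then GAAACT), searched on both strands, occurred in 0.222% of mouse promoters (73 of 32851) and in 8 of the 28 genes of the list with a promoter. Promoters were counted per start site, and genes by a match at any start site. Irgm1 and Bst2 are shown as members above every control with a match, which capitals mark at positions -24 and -130.
Irgm1, chr11:48871421-48871670, minus strand: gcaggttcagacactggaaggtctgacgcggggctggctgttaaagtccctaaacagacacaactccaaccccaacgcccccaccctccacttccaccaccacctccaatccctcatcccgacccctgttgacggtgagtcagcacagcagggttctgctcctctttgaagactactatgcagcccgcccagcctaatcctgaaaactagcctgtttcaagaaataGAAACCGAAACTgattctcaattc
Bst2, chr8:71537473-71537722, minus strand: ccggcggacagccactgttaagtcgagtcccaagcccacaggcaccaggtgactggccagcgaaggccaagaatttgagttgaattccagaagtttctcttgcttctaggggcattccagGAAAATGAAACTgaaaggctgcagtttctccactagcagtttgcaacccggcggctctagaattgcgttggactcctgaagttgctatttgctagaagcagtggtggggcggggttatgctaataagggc

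**Figure D3:**
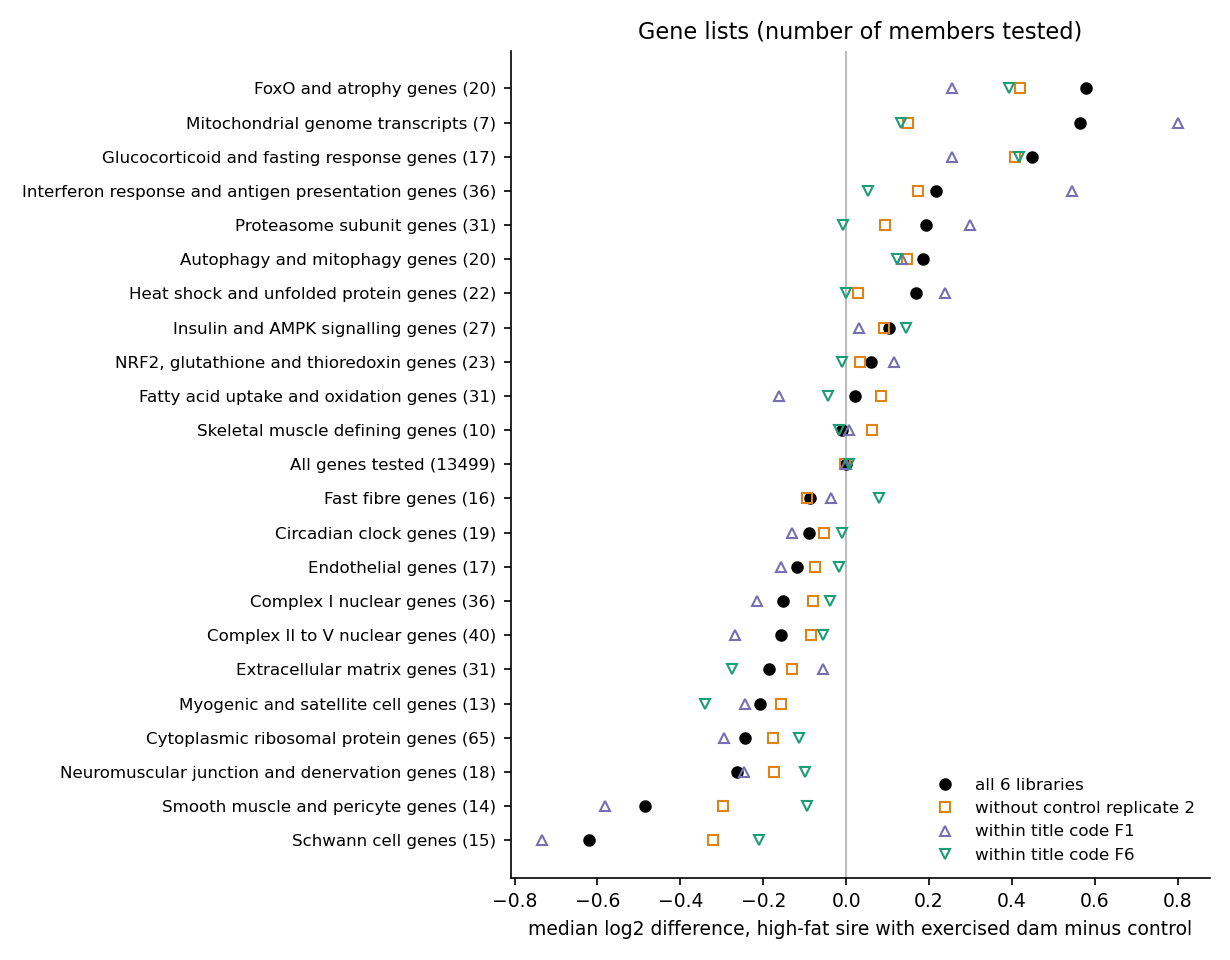
Median log2 difference of paternal exercised offspring from control for 22 gene lists and all genes tested (black), without control replicate 2 (orange), within title code F1 (purple) and within F6 (green). FoxO and atrophy genes (0.58) and Schwann cell genes (-0.62) lie at the ends, and the medians of all genes lie near 0.

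Cytoplasmic ribosomal protein genes were lower as a group. Of 65 tested, 60 had a lower mean and 5 a higher one, with 28 below every control (43.1%, beside 8.70% of all genes), 0 above and a median log2 difference of -0.24. Rps21, of the small subunit, had 2087, 2112 and 2071 against 2646, 3089 and 2377 (-0.36 ± 0.11), and the paternal exercised libraries were nearly equal. Rps12 differed by -0.31 ± 0.09, Rpl6 by -0.31 ± 0.10 and Rpsa by -0.27 ± 0.10, all below every control. Without control replicate 2 all 65 genes were lower, with a median of -0.18. Within F1 it was -0.29 and within F6 -0.11. Ribosomal protein transcripts are short, and gene length moved with the comparison. Over 5 equal bins of all genes by exon length, from the shortest to the longest, the median log2 difference went from -0.11 over -0.05, -0.00 and 0.04 to 0.12, and 64.5% of the longest genes had a higher mean. The same order was seen without control replicate 2 (-0.08 to 0.08), within F6 (-0.04 to 0.05), in paternal sedentary offspring (-0.06 to 0.08) and in maternal exercised offspring (-0.08 to 0.11) against the same controls. Taken relative to the median of genes of like length, the ribosomal median was -0.13. In the shortest bin 12.1% of all genes stood below every control, beside 43.1% of the ribosomal list. Insulin and AMPK signalling genes were long, with a median exon length of 7185 bases, and their median was 0.058 relative to genes of like length. Of all genes, 14.5% in the next to longest bin and 19.96% in the longest bin stood above every control, beside 22.2% of that list. The part of length and RNA quality in these differences was not tested.

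**Figure D4:**
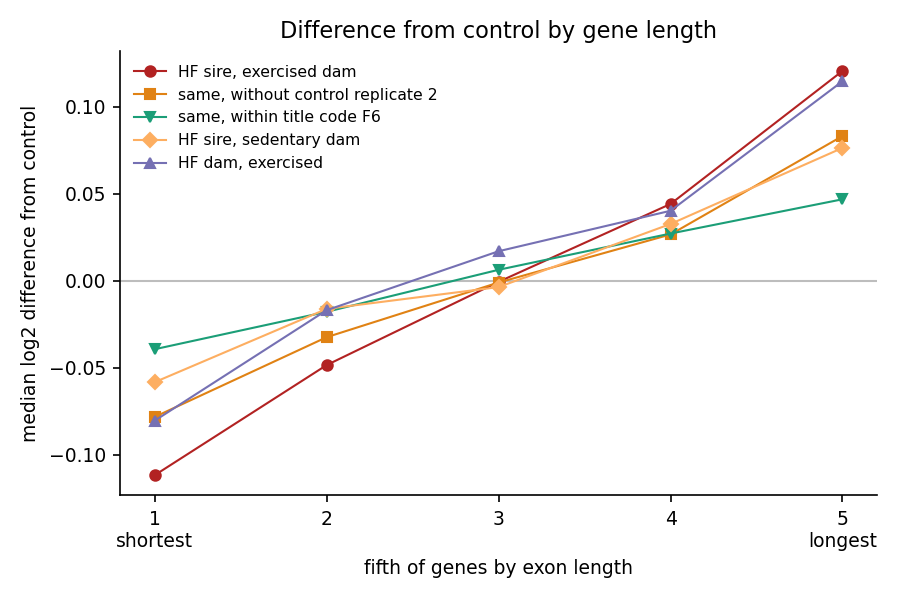
Median log2 difference from control (y axis) of genes in 5 bins of exon length, from the shortest to the longest (x axis), for paternal exercised offspring in all libraries, without control replicate 2 and within title code F6, and for 2 other groups. Each line climbs from below 0 to above 0, and paternal exercised offspring span -0.11 to 0.12.

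Nuclear genes of the respiratory chain were slightly lower, and transcripts of the mitochondrial genome were higher. Of 36 complex I genes, 30 had a lower mean and 6 a higher one, with 7 below every control (19.4%), 0 above and a median log2 difference of -0.15. Of 40 genes of complexes II to V, 35 were lower and 5 higher on average, with 7 below every control (17.5%), 0 above and a median of -0.16. Ndufv3 had 2375, 2259 and 2258 against 2796, 3120 and 2383 (-0.26 ± 0.11), and the muscle isoform Cox7a1 had 3346, 3797 and 3430 against 3840, 5364 and 3801, so that its groups barely separated (-0.28 ± 0.13). Ndufa7 (-0.39 ± 0.17) and Cox7a2 (-0.24 ± 0.09) were also below every control. Both lists hold short genes, with median exon lengths of 1644 and 1870 bases. In the shortest length bin 12.1% of all genes stood below every control. Relative to genes of like length the 2 list medians were -0.04 and -0.08, and without control replicate 2 both were -0.08. Of the 13 mitochondrial genome transcripts listed, 7 were tested and all 7 had a higher mean, with a median of 0.56, or 0.90 without control replicate 3 and 0.15 without control replicate 2, whose mitochondrial share of reads was the lowest of the 6. Only mt-Nd6 was above every control, with 28375, 29022 and 35697 against 21989, 8418 and 25789 (0.87 ± 0.44). Mitochondrial ribosomal protein genes had a median of -0.12 (-0.069 without control replicate 2, -0.075 without paternal exercised replicate 1), with 24 of 36 lower, 8 below every control and 1 above.

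Regulators of mitochondrial content gave a mixed picture. The 18 PGC-1 coactivators and partner receptors split 9 higher and 9 lower, with 2 above every control, 3 below and a median log2 difference of 0.01, from -0.017 without control replicate 3 to 0.14 without paternal exercised replicate 1. Ppargc1b, a coactivator of mitochondrial genes, was below every control (-0.59 ± 0.22), as were Perm1 (-0.35 ± 0.17) and the mitochondrial deacetylase Sirt3, with 210, 171 and 207 against 254, 298 and 239 (-0.43 ± 0.14). Ppargc1a (PGC-1 alpha) overlapped, with 516, 697 and 372 against 620, 760 and 374 (-0.13 ± 0.34, 0.09 without control replicate 2). Citrate synthase Cs, used as a measure of mitochondrial mass, had 18807, 20500 and 18900 against 21255, 21352 and 19125 (-0.08 ± 0.10). Its groups overlapped. The uncoupling protein Ucp3 overlapped too (-0.11 ± 0.23). Lists of fuel use had few genes apart from the controls. Fatty acid uptake and oxidation had 18 of 31 higher, 1 above every control and a median of 0.02, from -0.065 without paternal exercised replicate 2 to 0.17 without replicate 1. The citric acid cycle had 8 of 16 higher, 1 above every control, 1 below and a median of -0.01 (0.0021 with total count scaling), from -0.040 without control replicate 3 to 0.032 without paternal exercised replicate 1. Glycolysis and glycogen had 7 of 24 higher, none apart and a median of -0.18, from -0.29 without control replicate 3 to -0.060 without control replicate 1. In the lipid synthesis list 9 of 24 were higher (median -0.11, from -0.20 without paternal exercised replicate 3 to 0.0071 without replicate 2), with 2 above every control and 1, Scd2, below. Lpin1, also in the fasting list, and Insig1, which holds back sterol synthesis, were the 2 above. Insig1 had 178, 285 and 272 against 141, 135 and 159 (0.72 ± 0.24).

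Fibre type genes turned on 1 library. All 14 slow fibre genes tested had a lower mean in paternal exercised offspring, with a median log2 difference of -0.36, yet none stood below every control. Myh7, the slow myosin heavy chain, had 3842, 27089 and 23600 against 8832, 30628 and 38166 (-0.69 ± 0.62). Tnni1, slow troponin I, named after its values were seen, had 623, 3839 and 4311 against 1476, 6083 and 6492 (-0.83 ± 0.63). Paternal exercised replicate 1 and control replicate 1 were low in both genes, the former by far the lower. Without paternal exercised replicate 1 the list median was 0.20, the difference of Myh7 0.22 and that of Tnni1 0.07. Without control replicate 3 the list median was -0.058, and without control replicate 1 it was -0.95. How much slow muscle each dissected sample held was not tested. Of 16 fast fibre genes, 13 were lower, with 0 apart from the controls and a median of -0.09, from -0.21 without control replicate 3 to 0.012 without control replicate 1. The fast myosin Myh4 differed by -0.01 ± 0.27.

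Genes of vessel walls and nerve sheath were lower in paternal exercised offspring. In bulk tissue, fewer cells of a type and less RNA per cell cannot be told apart. Of 14 smooth muscle and pericyte genes, 12 had a lower mean and 2 a higher one, with 7 below every control, 1 above and a median log2 difference of -0.48. The actin-binding protein Tagln had 21.6, 18.8 and 32.3 against 49.8, 65.7 and 48.1 (-1.16 ± 0.32), smooth muscle actin Acta2 had 628, 519 and 853 against 944, 1741 and 980 (-0.84 ± 0.32), and the myosin light chain Myl9 had 489, 438 and 604 against 814, 1369 and 695 (-0.86 ± 0.29). The groups were apart in each, with control replicate 2 the highest. Smtn differed by -0.55 ± 0.18. The pericyte gene Rgs5 was the exception above every control, with 3935, 4091 and 4274 against 3566, 2984 and 3883 (0.25 ± 0.20). The summed level of the list was 758 to 841 CPM in paternal exercised offspring and 787 to 920 in controls, so the sums overlapped. Its median was -0.30 without control replicate 2, -0.58 within F1 and -0.09 within F6. The part of control replicate 2 and of vessels in each dissected sample was not tested. Of 17 endothelial genes, 14 were lower and 3 higher on average, with 2 below every control and a median of -0.12, from -0.22 without paternal exercised replicate 3 to -0.060 without replicate 1. Egfl7, secreted by endothelium, had 594, 673 and 961 against 1118, 1220 and 1006 (-0.61 ± 0.16). Vegfa, the growth factor for endothelium that muscle fibres secrete, had 2300, 2792 and 3259 against 4515, 6405 and 3643 (-0.78 ± 0.21) and passed in DESeq2 (adjusted p = 0.0497). Both genes were below every control, by a narrow margin in paternal exercised replicate 3.

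All 15 Schwann cell genes had a lower mean, with 3 below every control and a median log2 difference of -0.62. Mbp, a myelin protein, had 720, 748 and 865 against 929, 2182 and 1268 (-0.82 ± 0.26), and periaxin (Prx) had 443, 397 and 566 against 566, 1413 and 748 (-0.86 ± 0.28). The groups of Prx were separated by less than 1 count. In both genes control replicate 2 was far above the other 5 libraries. The myelin gene Pmp22 (-0.70 ± 0.21), named after its values were seen, overlapped by a small margin. In sum the list took 149 to 203 CPM in paternal exercised offspring and 176, 397 and 280 in controls. Without control replicate 2 the median was -0.32 with 12 of 15 lower, within F1 -0.73 and within F6 -0.21. The part of nerve in each dissected sample was not tested.

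Markers of other cell types of the tissue mostly had medians that single libraries moved. Extracellular matrix genes were lower in 25 of 31, with 1 below every control and a median log2 difference of -0.19, from -0.36 without paternal exercised replicate 1 to -0.096 without replicate 3. Macrophage genes were lower in 12 of 16, with 3 below every control and a median of -0.20, from -0.37 without paternal exercised replicate 1 to -0.069 without control replicate 2. Fibroblast genes were lower in 7 of 12, with none apart and a median of -0.10, from -0.29 without control replicate 3 to 0.024 without control replicate 2. Of 13 adipocyte genes 8 were lower with none apart. Their median of -0.59 went from -1.08 without paternal exercised replicate 1 to -0.099 without replicate 3. Of 5 erythrocyte genes 4 were higher, and their median of 0.14 went from -0.20 without paternal exercised replicate 1 to 0.41 without control replicate 3. Hepatocyte genes had a median of 0.11 with all libraries, 1.87 without control replicate 2 and -1.66 in DESeq2. Their summed levels were 24.7, 25.5 and 31.0 CPM in paternal exercised offspring and 17.7 and 20.1 in control replicates 1 and 3. The filter took the mean over all 15 libraries. Maternal sedentary replicates 2 and 3 had list means of 10.8 and 8.09 on the log2(normalized count + 1) scale. Paternal exercised libraries had 3.11, 3.41 and 3.91, and control replicates 1 and 3 had 1.36 and 2.29. These medians thus rest on low counts of genes that libraries outside the comparison helped past the filter.

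Genes of satellite cells and the neuromuscular junction were mostly lower. Of 13 myogenic genes, 12 had a lower mean and 1 a higher one, with 3 below every control (23.1%), 1 above and a median log2 difference of -0.21. The median went from -0.42 without control replicate 1 to -0.15 without paternal exercised replicate 2, and was -0.35 without control replicate 3. Myod1, the master regulator of myoblasts, had 76.1, 37.7 and 79.0 against 147, 181 and 108 (-1.21 ± 0.31) and passed in DESeq2 (adjusted p = 0.0458). All 3 values were below every control. The laminin receptor Itga7 differed by -0.40 ± 0.16. Pax7, the marker of quiescent satellite cells, named after its values were seen, overlapped, with 74.9, 42.4 and 36.5 against 89.4, 122 and 53.4 (-0.76 ± 0.30). Of 18 neuromuscular junction and denervation genes, 14 were lower and 4 higher, with 4 below every control (22.2%), 2 above (Gadd45a, also in the FoxO list, and Runx1) and a median of -0.26 (-0.17 without control replicate 2). Agrn, which encodes agrin, a protein of acetylcholine receptor clustering, had 548, 595 and 623 against 701, 759 and 799 (-0.35 ± 0.13). Its receptor Lrp4 differed by -0.43 ± 0.18 and the receptor subunit Chrnb1 by -0.30 ± 0.13, both below every control. Secreted muscle factors were lower in 17 of 20 (median -0.15, -0.28 without paternal exercised replicate 1 and -0.23 without control replicate 3), with 6 below every control and 1 above.

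Clock genes lay on both sides of the controls. Of 19 tested, 9 had a higher mean and 10 a lower one, with 3 above every control (15.8%), 5 below (26.3%) and a median log2 difference of -0.09, from -0.17 without control replicate 3 to -0.036 without paternal exercised replicate 2. Clock, a positive factor, had 582, 641 and 549 against 391, 256 and 385 (0.80 ± 0.30), and Rora, an activator of Arntl, had 2505, 3040 and 1958 against 1816, 946 and 1520 (0.84 ± 0.30). The repressor Cry2 was also above every control. Other repressors and outputs lay below every control, Per3 by -0.65 ± 0.27, Dbp by -0.78 ± 0.33 and Bhlhe40 by -0.60 ± 0.28. Dbp had 250, 146 and 151 against 271, 396 and 262. The hour of tissue collection is not given in the labels, and its part was not tested. Immediate early and stress genes, which respond within minutes to handling, had 11 of 18 lower, 3 below every control and a median of -0.17. It was -0.30 without control replicate 1, -0.28 without control replicate 3 and 0.09 without control replicate 2. Egr1 had 32.9, 61.2 and 67.9 against 449, 139 and 129 (-1.94 ± 0.87), and Fosb 1.14, 7.07 and 11.0 against 13.2, 25.3 and 16.9 (-1.67 ± 0.72). Paternal exercised replicate 1 was the lowest in both.

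The enzymes and readers of DNA methylation differed little. Of 11 tested, 4 had a higher mean and 7 a lower one, with a median log2 difference of -0.10, from -0.19 without control replicate 3 to -0.035 without control replicate 2. The de novo methyltransferase Dnmt3b had 11.3, 18.8 and 28.9 against 32.5, 28.3 and 20.5 (-0.51 ± 0.40), and its values overlapped. Of 19 imprinted genes, 15 were lower and 4 higher, with 2 below every control and a median of -0.17, from -0.28 without paternal exercised replicate 1 to -0.065 without replicate 2. The noncoding transcript Meg3, named after its values were seen, had 116, 153 and 319 against 379, 413 and 293 (mean 196 ± 108 against 362 ± 62.0, SD, n = 3), overlapping in paternal exercised replicate 3.

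Against the other groups no gene passed in limma. By their labels, paternal sedentary offspring differ from paternal exercised offspring in the wheel of the dam. Paternal sedentary replicates 1 and 2 share the title code F2 with paternal exercised replicate 2, and the other libraries of these groups share no code. Paternal sedentary replicate 1 had 275 CPM of hepatocyte transcripts. This contrast had 0 genes at an adjusted p under 0.05 (0.00%) and 508 (3.76%) at an unadjusted p under 0.05. DESeq2 called 1 gene (0.00742% of 13479). It was Arrdc3, named after its values were seen, an arrestin that turns over membrane receptors, with 3203 ± 955 in paternal exercised and 1248 ± 622 in paternal sedentary offspring (SD, n = 3, log2 1.36, DESeq2 adjusted p = 0.0433). Without paternal sedentary replicate 3 it also passed in limma (adjusted p = 0.0385). The contrast with maternal exercised offspring had 0 genes (0.00%) at an adjusted p under 0.05 in limma and in DESeq2 and 234 (1.73%) at an unadjusted p under 0.05. Against the controls that all groups share, paternal sedentary offspring had 387 genes (2.87%) and maternal exercised offspring 1183 (8.76%) at an unadjusted p under 0.05, beside the 1850 of paternal exercised offspring, and none (0.00%) after adjustment.

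**Figure D5:**
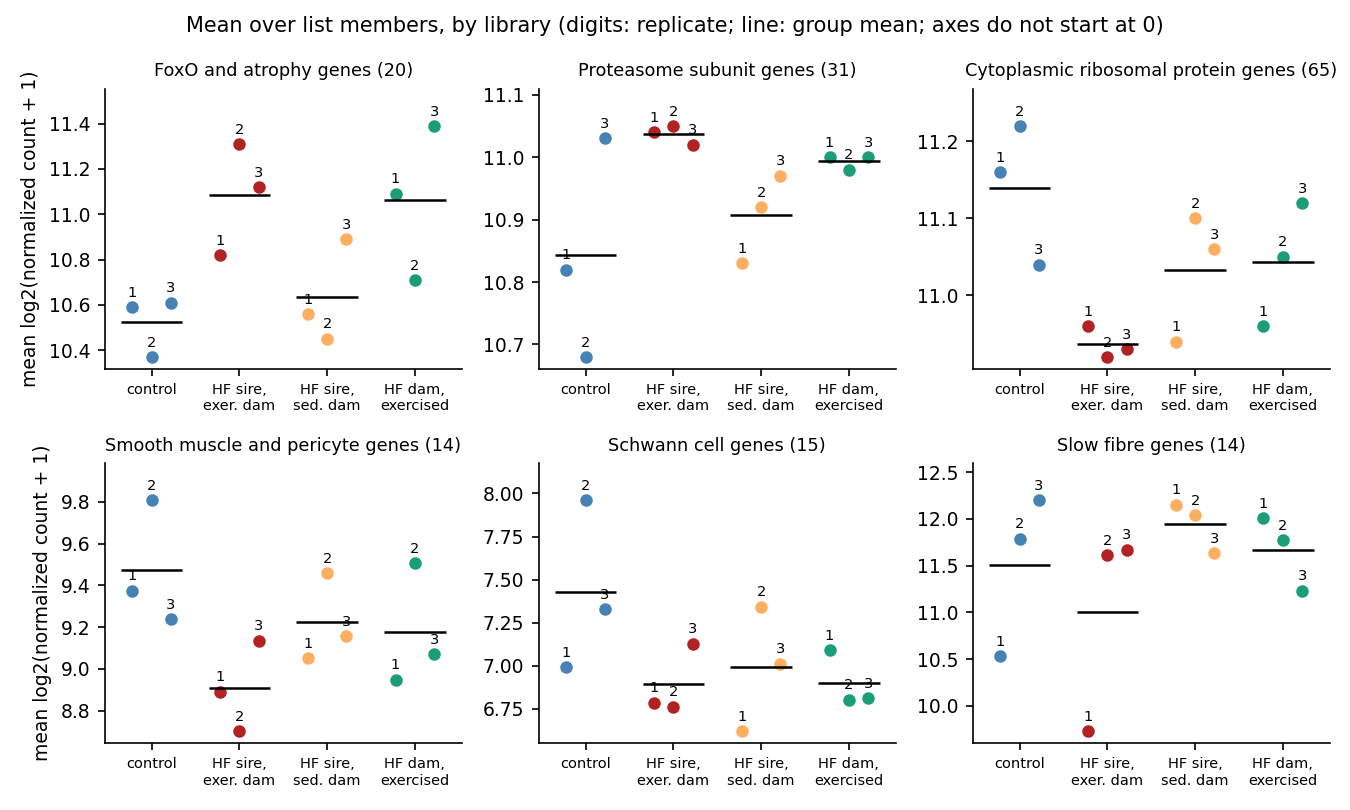
Mean log2(normalized count + 1) over the members of 6 gene lists in each library of 4 groups, with replicate numbers and the group mean as a line; the y axes do not start at 0. FoxO and atrophy genes are highest in the 2 exercised groups on average, and paternal exercised replicate 1 is the lowest library for slow fibre genes.

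The values below are set side by side as descriptions, because the comparisons with control share their controls. Trim63 differed from controls by 1.10 in paternal exercised, -0.02 in paternal sedentary and 1.04 in maternal exercised offspring on the log2 scale. Paternal sedentary libraries had 28891, 21955 and 56876 normalized counts, so 1 of them reached the level of the lowest paternal exercised library. Maternal exercised libraries spread widely, with 62892, 43773 and 118070. Maternal sedentary libraries, from dams without exercise, had 50428, 44321 and 48107, also above every control. The difference between the 2 paternal groups was 1.12 ± 0.34 (limma adjusted p = 0.991). Mstn differed from controls by 0.93, 0.10 and 0.92 in the same order, and Cdkn1a by 1.21, 0.31 and 1.24. The FoxO and atrophy list had medians of 0.58, 0.08 and 0.49, with 17 of 20 genes higher in paternal exercised than in paternal sedentary offspring (median 0.38) and 12 of 20 higher than in maternal exercised offspring (0.04). Glucocorticoid and fasting genes had medians of 0.45, -0.01 and 0.39. By library, the mean log2(normalized count + 1) of this list was 12.2, 12.47 and 12.17 in paternal exercised offspring and 11.99, 12.08 and 11.86 in controls. It was 11.75, 11.64 and 12.33 in paternal sedentary and 12.31, 12.15 and 12.81 in maternal exercised offspring. Maternal sedentary libraries, without dam exercise, had 12.18, 12.02 and 12.18, so single libraries did not divide by exercise of the dam.

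For Slc8a1, Pde4d, Pde4b and Cspg4, both other groups lay between controls and paternal exercised offspring on average. Slc8a1 differed from controls by 0.44 in paternal sedentary and 0.72 in maternal exercised offspring, Pde4d by 0.36 and 0.40, Pde4b by 0.44 and 0.67, and Cspg4 by -0.37 and -0.49. All 30 genes named by the rule lay on the same side of control on average in paternal sedentary and in maternal exercised offspring. The direction was thus not particular to paternal exercised offspring, and the controls are shared. Optn differed by 0.43 and 0.33 in these 2 groups, beside 0.41, and Slc36a2 by -0.88 and -1.15, beside -1.23. Among the 30, Sema6a differed least from control (-0.05 in paternal sedentary and -0.06 in maternal exercised offspring). In paternal sedentary offspring Slc10a3 (0.07) and Zfp385a (-0.08) also differed little. Sema6a had 135, 157 and 152 normalized counts in paternal exercised offspring, 247, 239 and 204 in paternal sedentary and 200, 209 and 277 in maternal exercised offspring. Its difference from these groups was -0.63 ± 0.17 and -0.61 ± 0.17 and did not pass (limma adjusted p of 0.991 and 1.00). Slow fibre genes were lower in 14 of 14 against each of the other 2 groups (median -1.05 and -0.65). Without paternal exercised replicate 1 the medians were -0.27 (14 of 14 lower) and 0.023 (5 of 14 lower), an alternative chosen after the data were seen. Ribosomal protein genes had medians of -0.24 in paternal exercised, -0.14 in paternal sedentary and -0.11 in maternal exercised offspring against control. Smooth muscle and pericyte genes had -0.48, -0.26 and -0.32, and Schwann cell genes -0.62, -0.36 and -0.52.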

How the data were processed

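The authors sequenced quadriceps RNA of 15 mice, single-end with 100 bp reads. Ribosomal RNA had been removed and the library kit keeps the strand, per the labels' protocols. STAR 2.5.2b, featureCounts 1.5.2, DESeq2 1.11.8 and build mm10 are named in the submitters' processing notes. In the deposited table each value is a normalized signal, a read count divided by 1 size factor per library. That the authors scaled it so was deduced from the values: all (100%) were whole multiples of 1 step per library within 0.001 of a read. The recovered reads came to 18457663 to 26981745 per library. Of 50686 genes, 50462 (99.6%) matched GENCODE M21 (GRCm38). A mean of at least 10 over all libraries kept 13499.

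Groups of 3 libraries follow the group label. Replicate numbers follow accession order and pair nothing. Read counts of libraries in the same group were further apart than counting noise allows (chi-square per degree of freedom 18.0 to 73.3 in the 2 groups compared). Differences were tested with limma 3.58.1 (moderated, with a trend) in R 4.3.3 on log2(normalized count + 1). All 15 libraries entered 1 fit with 10 residual degrees of freedom, and p-values were adjusted by Benjamini-Hochberg over all genes tested. The shared spread thus includes the maternal sedentary group, whose replicates 2 and 3 held 4418 and 528 CPM of hepatocyte transcripts. This scale understates the change of low genes. On recovered reads, edgeR 4.0.16 called 0 genes, DESeq2 1.42.0 called 67 and limma voom 0. Tables and figures were made in Python 3.11.15 with numpy 2.4.6, pandas 2.3.3 and matplotlib 3.10.9.

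The members, the 41 gene lists, the tests and the alternatives were chosen with earlier results of these data known. Of 874 listed symbols, 5 matched no gene. Lists are described by counts and medians, without a set test. As no gene passed, the rule named the 15 genes a side with the smallest unadjusted p among genes with a symbol that is not a clone name, a mean of at least 50 in either group and no overlap between the 3 and 3 libraries. A fixed set of 11 genes was given whatever its values: Trim63, Mstn, Pdk4, Dnmt3b, Myh7, Xist, Cs, Slc2a4, Ucp3, Ppargc1a and Myh4. The rule also took up to 4 members per list whose groups did not overlap, most of which are described. Outside the rule, Fbxo32, Sesn1, Socs3, Acta2, Rgs5, Sdf2l1, Bhlhe40, Irgm1, Gbp4, Bst2, Cry2, Prkag1, Runx1 and those marked in the report were named after their values were seen. Lists not described in the report had medians of -0.05 (calcium release and excitability, -0.23 without control replicate 3), -0.16 (myostatin and activin receptor signalling, -0.24 without control replicate 3 and -0.075 without paternal exercised replicate 1), -0.23 (tendon, -0.037 without paternal exercised replicate 2), -0.14 (lymphocyte and neutrophil, -1.17 to 0.36 without paternal exercised replicates 3 and 2) and -0.01 (genes that define muscle). Promoter sequences are from RefSeq.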

Additional observations from a re-analysis of the deposited data

Results flagged for a closer look

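Fst, which encodes the myostatin antagonist follistatin, lay on opposite sides of the controls in the 2 exercised groups. Its normalized counts were 38.6, 43.6 and 36.5 in paternal exercised offspring, below every control (53.9, 53.5 and 51.6), and 69.2, 58.3 and 58.6 in maternal exercised offspring, above every control. The log2 difference between these groups was -0.635 ± 0.21 (SE) and did not pass (limma adjusted p = 1.00). Genes with this kind of split were few, with 5 between the exercised groups and 4 between paternal exercised and paternal sedentary offspring among 13499.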

How the results depend on the processing

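No paired analysis was possible because the replicate numbers follow accession order. The title code, shared by some libraries of both groups, entered as a covariate. Of 2633 values of genes given with values in the text under 22 alternatives, 2584 kept their direction and their side of the threshold. Another 33 passed only under the alternative (32 of them in DESeq2) and 16 turned sign. Much of this tally was fixed beforehand, as no gene passed in the main fit. Other filters, or a fit of the 6 libraries alone, also cannot change the log2 difference of a gene. Of 41 list medians, 29 kept their sign throughout. At an adjusted p of 0.05 the main comparison had 0 genes, 67 in DESeq2 and 0 to 1 with 1 library left out. The contrast with paternal sedentary offspring had 0 genes, 1 in DESeq2 and 0 to 1. At an unadjusted p the main count of 1850 became 814 without the libraries with few detected genes and 771 without those with liver transcripts. Of the 2 groups compared, both sets hold only control replicate 2, so their log2 differences equal those without that library. The count was 943 with the title code as a covariate and 925 without paternal exercised replicate 2. It ran from 697 (without control replicate 2) to 2853 (without control replicate 3). The 508 genes of the contrast with paternal sedentary offspring became 283 to 1056 (without its replicates 2 and 3), and the 234 of that with maternal exercised offspring became 140 at a mean of at least 50 and 146 to 381 (without its replicates 3 and 1). Genes above every control (1579) became 944 with total count scaling and 1970 to 2876 with 1 library left out, and those below (1175) 1590 to 2790, as fewer libraries overlap less. With the slow fibre score as a covariate the slow fibre median was 0.054. That score is the mean of the same genes, so a small value was built in. With 1 library left out the median ranged from -0.95 to 0.20 (without paternal exercised replicate 1). Likewise Tnni1 ranged from -1.53 to 0.069 and Myh7 from -1.34 to 0.22, both positive only without that library. The immediate early median turned to 0.091 without the libraries with few genes or with liver transcripts, and ranged from -0.30 to 0.091 (without control replicate 2). Ppargc1a was 0.088 without either set and ranged from -0.42 to 0.10 (without paternal exercised replicate 3). Ucp3 was 0.047 with the title code and ranged from -0.27 to 0.015 (without control replicate 1). Myh4 was 8.8e-05 without either set, 0.14 with the title code and 0.0057 with total count scaling, and ranged from -0.22 (without control replicate 3) to 0.19 (without control replicate 1). The cause was not tested. With 3 libraries a group, the spread between animals limits precision more than depth does.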
